A study of Mus musculus with 2 samples.

Results

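The genes described here are the digestive enzymes of the pancreatic acinar cell and the proteins that package, restrain or switch on those enzymes. They were chosen by name as a list of 37 genes, and a gene counted as measured when the symbol column of the deposited probe table gave that name. The table matched 35 of the 37, through 44 probes, and all 35 passed the filter on dim probes, among 30864 genes or unnamed probes tested on the arrays. Prss3 and Try10 were not matched by symbol or by gene identifier and were not analysed here.

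Acinar cells form the exocrine pancreas, which surrounds the islets and pours inactive precursors of proteases, together with amylase, lipases and nucleases, into the gut. Trypsin activates the other precursors, and inhibitors carried in the same granules hold it in check. The transcription factors Ptf1a and Rbpjl sit in a complex that binds the enzyme promoters at a paired E box and TC box, while Nr5a2 and Bhlha15 (Mist1) maintain the secretory state. Isolated islets commonly carry some acinar tissue along.

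Total RNA from isolated mouse islets was labelled with Cy3 and hybridised to one-colour expression arrays. The pancreatectomy group consisted of C57BL/6J mice operated on 3 days earlier to take out 60% of the pancreas, and the sham group of C57BL/6J mice at the same time after a sham operation, all aged 8 weeks. Each group was a single series sample with 4 replicate arrays. The labels do not state whether the 4 arrays of a group hold RNA of different animals, and p-values therefore reflect variation among arrays, some of which may be technical. Pancreatectomy arrays lay in columns 3 and 4 of the slide and sham arrays in columns 1 and 2, and effects of column and of operation cannot be told apart, whereas each of the 2 slide rows held both groups. The 75th percentile of the processed signal lay between 280 and 640 on pancreatectomy arrays and between 178 and 655 on sham arrays. Liver, gut or B-cell transcripts were high on pancreatectomy replicates 1, 3 and 4 and sham replicate 4. All 10 beta-cell markers on a list for the labelled tissue were measured. Ins2, an insulin gene that marks beta cells, had a mean log2 signal of 18.43 ± 0.43 in pancreatectomy and 18.58 ± 0.78 in sham (SD, n = 4 arrays each), well above background on 4 of 4 arrays of each group.

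The promoter windows of the acinar genes were searched for the letters of the E box and the TC box. Whether these letters bear on the shared array order described below was not tested. RefSeq windows of 300 bases on GRCm38.p6, most of each upstream of the gene's start, were matched for 27 of the 35 genes. The E box was searched as CACCTG and the TC box as TTTCCC, each on both strands, and the letters of the searched pair do not overlap each other. CACCTG was present in 15 of the 29 windows of these genes (51.7%), against 20.2% of all 32851 windows. TTTCCC was present in 10 of the 29 windows (34.5%), against 25.2% of all windows, and both in 6 of the 29 (20.7%), against 4.86%. The 6 genes with both were Cel, Cela1, Cela2a, Nr5a2, Prss1 and Prss2. The 3 windows with the shortest spacing between the motifs are shown 5′ to 3′ on the gene's strand, with CACCTG and TTTCCC, on either strand, in capitals. The closest pair was 4 bases apart in Cela1 and Prss1 and 15 bases apart in Cel. These are matches of letters, not sites shown to be bound.
Cela1, minus strand, chr15:100687871-100688170: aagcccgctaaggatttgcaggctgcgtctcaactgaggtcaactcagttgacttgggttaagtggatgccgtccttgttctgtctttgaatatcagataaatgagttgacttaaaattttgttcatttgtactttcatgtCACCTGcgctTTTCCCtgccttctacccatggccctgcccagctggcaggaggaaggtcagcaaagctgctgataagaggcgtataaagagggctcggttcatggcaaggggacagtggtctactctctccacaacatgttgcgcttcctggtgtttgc
Prss1, plus strand, chr6:41458680-41458979: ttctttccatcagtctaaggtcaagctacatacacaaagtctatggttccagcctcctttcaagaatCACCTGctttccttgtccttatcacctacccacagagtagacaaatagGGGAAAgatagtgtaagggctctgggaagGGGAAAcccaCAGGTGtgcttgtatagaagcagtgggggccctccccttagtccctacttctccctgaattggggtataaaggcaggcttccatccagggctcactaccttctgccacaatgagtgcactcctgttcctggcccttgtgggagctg
Cel, minus strand, chr2:28563354-28563653: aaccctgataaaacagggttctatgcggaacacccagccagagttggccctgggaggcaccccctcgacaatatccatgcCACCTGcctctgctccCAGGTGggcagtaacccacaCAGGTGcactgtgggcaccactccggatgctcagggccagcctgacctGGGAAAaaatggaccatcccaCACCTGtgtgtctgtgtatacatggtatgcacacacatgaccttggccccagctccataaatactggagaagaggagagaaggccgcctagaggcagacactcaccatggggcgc

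No acinar gene on the list passed the test between pancreatectomy and sham islets. With limma and Benjamini-Hochberg adjustment over all 30864 features, 0 of the 35 genes were called, against 0.629% of all features. By direction 0 rose, against 0.544% of features higher, and 0 fell, against 0.0842% lower. At an unadjusted p under 0.05 the count was also 0 of 35, where 10.5% of all features passed. The groups' arrays did not overlap for 0 of the 35, against 8.28% of all features. The log2 change, pancreatectomy minus sham, was positive for 29 genes and negative for 6, with a median of 0.27, against −0.04 over all features. The smallest adjusted p among the acinar genes was 0.517, for Dmbt1. In bulk RNA of this kind, fewer acinar cells and less RNA per acinar cell cannot be told apart.

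The acinar genes varied far more between arrays of a group than most genes did. The median within-group SD of the 35 genes was 1.09 on the log2 scale, against 0.32 over all features, and 3.14% of features had a larger SD than that acinar median. For 34 of the 35 genes the SD lay above the median of all features, and for 33 it was larger than the gene's own change, the exceptions being Dmbt1, with an SD of 1.01 and a change of 1.24, and Spink3, with both at 0.97. The range over the 4 arrays had a median of 1.93 in pancreatectomy and 2.91 in sham. Bhlha15 had the lowest SD, 0.25, and Cuzd1 the highest, 1.80.

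The genes moved as a block over the arrays. After each gene was set to its own mean, the median of the 35 was −0.68, 0.04, 1.24 and 0.20 on pancreatectomy replicates 1 to 4 and 1.16, 0.10, −1.84 and −0.13 on sham replicates 1 to 4. The highest and lowest pancreatectomy arrays, replicates 3 and 1, stood 3.79-fold apart, and the highest and lowest sham arrays, replicates 1 and 3, stood 8.02-fold apart. The mean of these array medians was 0.20 ± 0.79 in pancreatectomy and −0.18 ± 1.24 in sham (SD, n = 4 arrays each), and the groups overlapped over most of their range. The highest array was pancreatectomy replicate 3 for 22 genes, sham replicate 1 for 12 and pancreatectomy replicate 4 for 1, Bhlha15. The lowest array was pancreatectomy replicate 1 for 5 genes and sham replicate 3 for 28, with Nr5a2 lowest on pancreatectomy replicate 2 and Bhlha15 on pancreatectomy replicate 3. As a description over 8 arrays, 25 of the 35 genes had a Pearson r above 0.9 with the median of the others, a median that belongs to the same arrays and scaling.

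**Figure D1:**
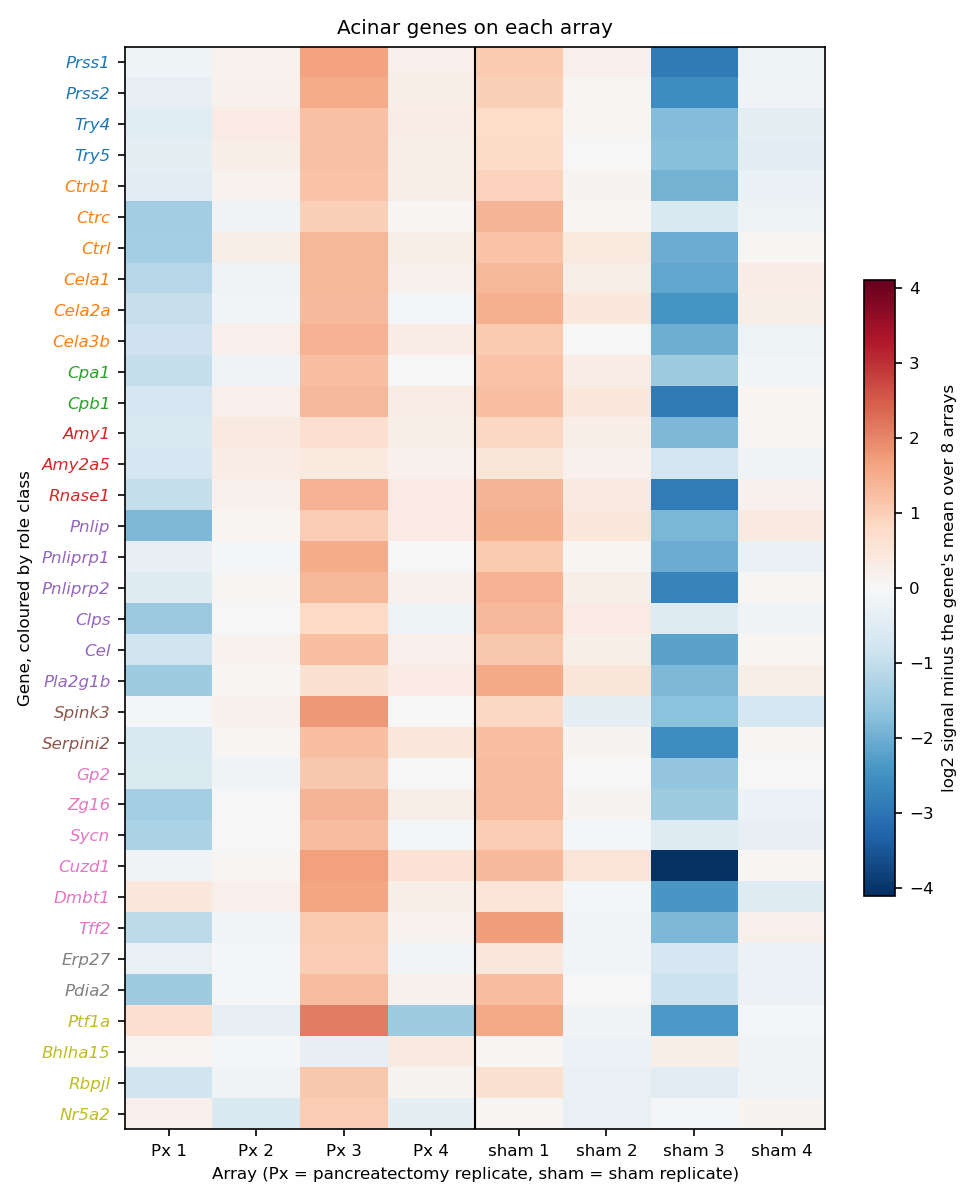
Each row is an acinar gene, coloured by role, and each column an array, with pancreatectomy (Px) left and sham right. The colour gives the log2 signal minus the gene's mean over 8 arrays, and the column with the strongest blue, sham replicate 3, has a median of −1.84.

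The sign of the pooled change depended on single arrays. Without pancreatectomy replicate 3 the median change was −0.01, with 17 genes higher and 18 lower, and without sham replicate 3 it was −0.23, with 11 higher and 24 lower. Without pancreatectomy replicate 1 it was 0.59 and without sham replicate 1 it was 0.64. On sham replicate 3 the 75th percentile of the signal was 178 and 48.1% of probes were well above background, the lowest of the 8 arrays on both measures, and its part in the result was not tested. On pancreatectomy replicate 3 the markers of B and plasma cells had a median of 5.33 above their own means, and those of gut 2.36. Restricted to the arrays where liver, gut and B-cell transcripts were not high, which left pancreatectomy replicate 2 against 3 sham arrays, the median change was 0.22.

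The direction of change was opposite in the 2 slide rows, each of which holds 2 arrays of each group. In row 1 the median change was −0.99, with 33 of the 35 genes lower, and in row 2 it was 1.69, with 34 of 35 higher. For 33 genes the change was negative in row 1 and positive in row 2. Row 1 held pancreatectomy replicate 1 and sham replicate 1, with acinar medians of −0.68 and 1.16. Row 2 held pancreatectomy replicate 3 and sham replicate 3, with 1.24 and −1.84. The remaining pancreatectomy and sham arrays had 0.04 and 0.10 in row 1 and 0.20 and −0.13 in row 2. The rows thus split the same outlying arrays described above, and whether slide row itself bears on the values was not tested. With slide row as a block in limma, 0 of the 35 genes were called, and limma called 0 within either row, with 6 at an unadjusted p under 0.05 in row 1, against 6.55% of all features, and 9 in row 2, against 2.90%.

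**Figure D2:**
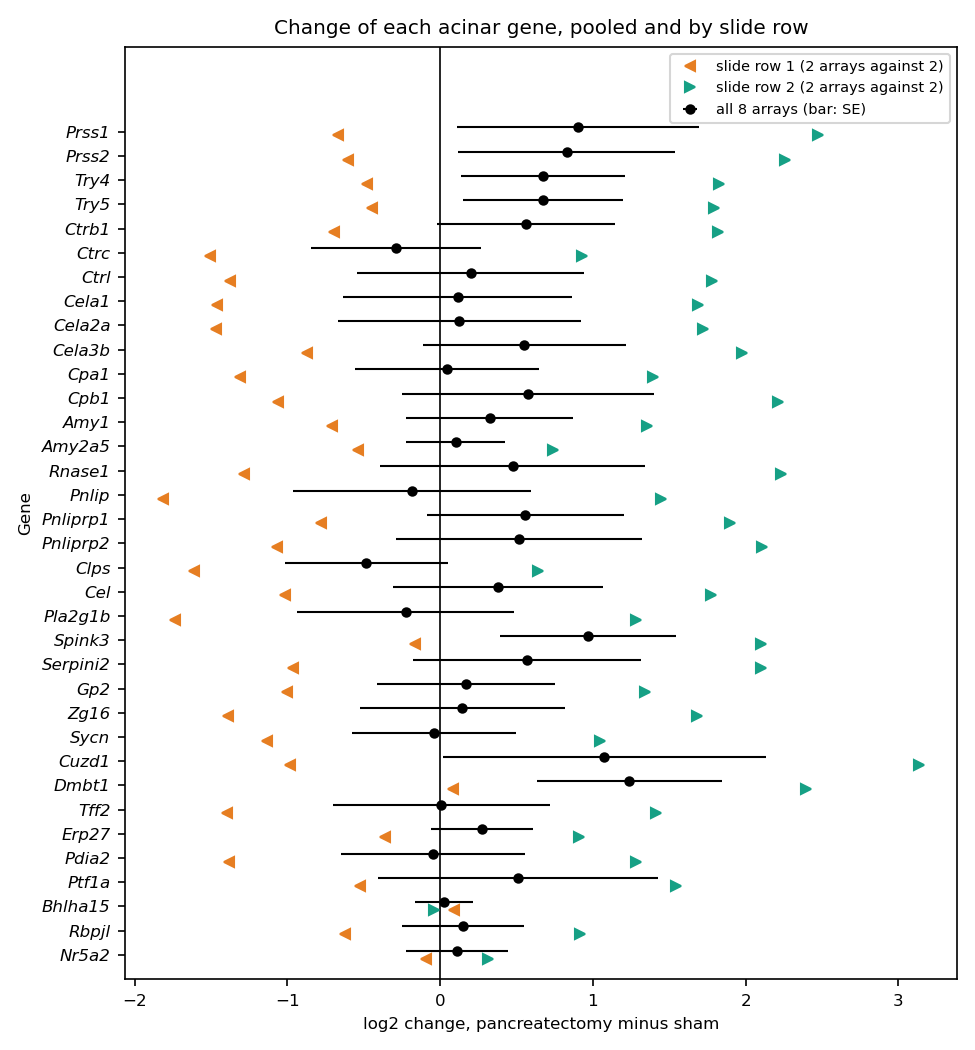
Black points are the log2 change, pancreatectomy minus sham, over all 8 arrays with its standard error, and triangles the change within slide row 1 (pointing left) and slide row 2 (pointing right), each 2 arrays against 2. The row 1 changes have a median of −0.99 and the row 2 changes a median of 1.69.

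The 4 measured trypsinogen genes had positive changes, each smaller than its SD between arrays. Try5, a trypsinogen with the brightest probe of its class, had log2 signals of 16.22, 16.85, 17.79 and 16.80 on pancreatectomy replicates 1 to 4 and 17.38, 16.58, 14.86 and 16.14 on sham replicates 1 to 4. Pancreatectomy replicate 3 was the highest of the 8 and sham replicate 3 the lowest, and the groups overlapped. The change was 0.68 ± 0.52 (SE, n = 4 arrays each) with a limma adjusted p of 0.68. Try4 changed by 0.67 ± 0.54, Prss2, an anionic trypsinogen, by 0.83 ± 0.71 and Prss1, cationic trypsinogen, by 0.90 ± 0.79, and none passed. Prss2 had log2 signals of 14.68, 15.18, 16.52 and 15.29 on the pancreatectomy arrays and 15.97, 15.09, 12.45 and 14.85 on the sham arrays, with sham replicate 3 far below the rest. Prss1 was read by 2 probes, and the dimmer one gave 1.21. Its brighter probe lies at chr6:41412562-41412621 on mm9, within the cluster of trypsinogen genes on chromosome 6. Trypsinogens form a family of near-identical copies, so a probe may read more than 1 of them, and which copies each probe binds was not tested.

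Among the proteases that trypsin activates, the chymotrypsinogens and elastases had a median change of 0.16, against 0.75 for the trypsinogens. The difference between these classes was not tested. Ctrb1, chymotrypsinogen B, read by the brightest probe of this class, had log2 signals of 15.67, 16.28, 17.31 and 16.41 on the pancreatectomy arrays and 17.09, 16.24, 14.21 and 15.87 on the sham arrays. Its change was 0.56 ± 0.58 with an adjusted p of 0.766 in limma. Ctrc, chymotrypsin C, which degrades trypsinogen, had 7.21, 8.49, 9.60 and 8.68 on the pancreatectomy arrays and 10.02, 8.69, 8.001 and 8.43 on the sham arrays. It was lowest on pancreatectomy replicate 1 and highest on sham replicate 1, the groups overlapped, and the change of −0.29 ± 0.56 (adjusted p = 0.874, limma) was among the 3 lowest of the list. Its second probe gave −0.080. Cela3b changed by 0.55 ± 0.66, Ctrl by 0.20 ± 0.74, Cela2a by 0.13 ± 0.79 and Cela1, an elastase, by 0.11 ± 0.75. Within slide row 1 all 6 genes of this class were lower, with a median of −1.42, and in row 2 all 6 were higher, with a median of 1.75.

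The carboxypeptidases trim residues from the ends of peptides that the endoproteases release. Cpb1, carboxypeptidase B, had log2 signals of 14.94, 15.84, 16.95 and 15.91 on the pancreatectomy arrays and 16.84, 16.07, 12.73 and 15.70 on the sham arrays. Sham replicate 3 lay below every other array and the remaining sham arrays lay among the pancreatectomy arrays, and the change was 0.57 ± 0.82. Cpa1, carboxypeptidase A, had 14.12, 14.93, 16.32 and 15.07 on the pancreatectomy arrays and 16.27, 15.40, 13.62 and 14.99 on the sham arrays, and the groups overlapped. It changed by 0.042 ± 0.60, with means of 15.11 ± 0.91 in pancreatectomy and 15.07 ± 1.10 in sham (SD, n = 4 arrays each).

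Of the amylases, which cut starch, Amy2a5 by its brighter probe had a within-group SD of 0.52, and Amy1 a wider one of 0.92. Amy2a5, a pancreatic amylase gene, had log2 signals of 17.38, 18.36, 18.44 and 18.24 on the pancreatectomy arrays and 18.57, 18.25, 17.28 and 17.92 on the sham arrays, a change of 0.10 ± 0.33. Its second, dimmer probe spread more widely, with 14.44, 15.21, 16.25 and 15.21 on the pancreatectomy arrays and 16.41, 15.52, 12.51 and 15.54 on the sham arrays, and gave 0.29. On sham replicate 3 the dimmer probe was far below its other arrays while the brighter probe lay near pancreatectomy replicate 1, so the size of that array's dip depended on the probe. Amy1, the salivary-type amylase gene, changed by 0.32 ± 0.55 and Rnase1, the pancreatic ribonuclease, by 0.47 ± 0.87.

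Of the 6 lipid-digesting genes, 3 had positive and 3 negative changes. Clps, colipase, which anchors pancreatic lipase to fat droplets, had log2 signals of 13.72, 15.22, 16.08 and 15.03 on the pancreatectomy arrays and 16.57, 15.59, 14.72 and 15.10 on the sham arrays. Pancreatectomy replicate 1 was lowest, sham replicate 1 was highest and the groups overlapped. The change, −0.48 ± 0.53 (adjusted p = 0.779, limma), was the lowest of the 35. The second Clps probe had 11.65, 12.79, 14.02 and 12.65 on the pancreatectomy arrays and 14.33, 13.26, 10.98 and 13.07 on the sham arrays, a change of −0.14, and put sham replicate 3 lowest. The representative Clps probe lies at chr17:28695162-28695221 on mm9.

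Pla2g1b, the pancreatic phospholipase A2, had 8.14, 9.65, 10.23 and 9.95 on the pancreatectomy arrays and 11.14, 10.11, 7.77 and 9.86 on the sham arrays, and changed by −0.23 ± 0.71. Its 2 probes differed in direction, the dimmer giving 0.036. Pnlip, pancreatic triglyceride lipase, changed by −0.19 ± 0.78. The related lipases Pnliprp1 and Pnliprp2 changed by 0.56 ± 0.64 and 0.52 ± 0.80, and Cel, the bile-salt-dependent lipase, by 0.38 ± 0.69.

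Spink3, the secreted trypsin inhibitor of mouse pancreas, had the third largest change, after Dmbt1 and Cuzd1, and stood above Cuzd1 with normexp, quantile scaling, array weights or the acinar median as a covariate, within slide row 1, and without pancreatectomy replicate 4 or sham replicate 3. Its log2 signals were 11.88, 12.11, 13.71 and 11.95 on the pancreatectomy arrays and 12.79, 11.53, 10.24 and 11.22 on the sham arrays. Pancreatectomy replicate 3 stood above the other 7 arrays and sham replicate 3 below them, sham replicate 1 lay above 3 pancreatectomy arrays, and the change was 0.97 ± 0.58 with a limma adjusted p of 0.597. Without pancreatectomy replicate 3 it was 0.54 and without sham replicate 3 it was 0.56. In slide row 1 it was −0.17 and in row 2 2.10. Serpini2, a pancreatic serpin, changed by 0.57 ± 0.74.

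Among the granule and secreted glycoproteins, Dmbt1 had the largest change of the list. Dmbt1, a secreted scavenger-receptor glycoprotein of mucosal and duct epithelia, had log2 signals of 14.10, 13.88, 15.30 and 13.90 on the pancreatectomy arrays and 14.19, 13.63, 11.28 and 13.14 on the sham arrays. Sham replicate 1 lay above pancreatectomy replicates 1, 2 and 4, so the groups overlapped, and the change was 1.24 ± 0.60 with an adjusted p of 0.517 in limma. Its probe lies at chr7:138265063-138265122 on mm9. Without sham replicate 3 the change was 0.65. Dmbt1 was the exception with Bhlha15 in not being lower in slide row 1, where it changed by 0.082, against 2.40 in row 2.

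Cuzd1, a zymogen granule membrane protein, had log2 signals of 7.99, 8.20, 9.83 and 8.75 on the pancreatectomy arrays and 9.48, 8.68, 4.09 and 8.22 on the sham arrays. It was above background on 3 of the 4 sham arrays, sham replicate 3 lay far below the rest, and the change of 1.08 ± 1.06 had the widest error of the list. It was 0.32 with normexp background correction, 0.33 with array weights and −0.10 without sham replicate 3. Sycn, syncollin, a granule protein with the brightest probe of this class, had 13.40, 14.71, 15.98 and 14.65 on the pancreatectomy arrays and 15.75, 14.63, 14.17 and 14.36 on the sham arrays, and its change was −0.043 ± 0.54. On sham replicate 3 it lay just under the other sham arrays, and pancreatectomy replicate 1 was its lowest array. Gp2, the main granule membrane glycoprotein, changed by 0.17 ± 0.58, the lectin Zg16 by 0.15 ± 0.67 and Tff2, a trefoil peptide also made by stomach, by 0.0075 ± 0.71.

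The endoplasmic reticulum proteins fold the secreted load. Erp27 had log2 signals of 11.30, 11.54, 12.60 and 11.50 on the pancreatectomy arrays and 12.07, 11.49, 10.92 and 11.36 on the sham arrays, a change of 0.27 ± 0.33. Its highest array was pancreatectomy replicate 3 and its lowest sham replicate 3. Pdia2, the protein disulfide isomerase enriched in pancreas, had 10.15, 11.53, 12.85 and 11.78 on the pancreatectomy arrays and 12.86, 11.58, 10.71 and 11.35 on the sham arrays, lowest on pancreatectomy replicate 1. It changed by −0.048 ± 0.60, and its 2 probes gave nearly the same value.

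The 4 transcription factors followed the enzymes to different extents. Ptf1a, the acinar lineage factor, had log2 signals of 6.10, 5.08, 7.52 and 3.96 on the pancreatectomy arrays and 6.95, 5.27, 3.07 and 5.33 on the sham arrays, and was above background on 3 of the 4 sham arrays. Pancreatectomy replicate 3 was highest and sham replicate 3 lowest, as for most enzymes, but pancreatectomy replicate 4 was the second lowest. Its change was 0.51 ± 0.92 with an adjusted p of 0.865 in limma.

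Rbpjl, the partner of Ptf1a in the adult acinar complex, had 6.21, 6.89, 8.13 and 7.14 on the pancreatectomy arrays and 7.63, 6.71, 6.57 and 6.87 on the sham arrays, and changed by 0.15 ± 0.40. It was lowest on pancreatectomy replicate 1, and its dimmer probe gave 0.50. Nr5a2, a nuclear receptor of acinar cells also used in liver and gut, had 6.53, 5.71, 7.38 and 5.93 on the pancreatectomy arrays and 6.40, 6.04, 6.24 and 6.43 on the sham arrays, and changed by 0.11 ± 0.34. The 4 sham values of Nr5a2 all lay within the pancreatectomy range, and its second probe did not pass the filter.

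Bhlha15, a factor of many secretory cells, had 12.81, 12.68, 12.40 and 13.08 on the pancreatectomy arrays and 12.81, 12.51, 12.97 and 12.59 on the sham arrays, and changed by 0.025 ± 0.19. It did not follow the enzymes: its lowest array was pancreatectomy replicate 3, where the acinar median was highest, and on sham replicate 3, where that median was lowest, it was the highest sham value. As a description over 8 arrays, the Pearson r with the median of the other acinar genes was −0.48 for Bhlha15, 0.36 for Nr5a2, 0.78 for Ptf1a and 0.82 for Rbpjl. All 31 genes other than transcription factors were highest on pancreatectomy replicate 3 or sham replicate 1, and their lowest r was 0.76.

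**Figure D3:**
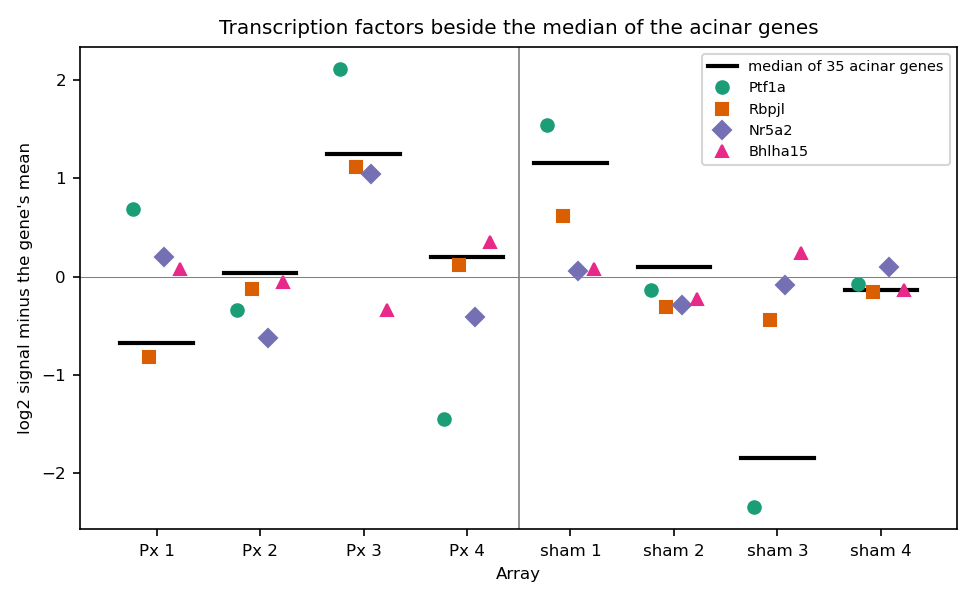
Points give the log2 signal of each transcription factor minus its mean over 8 arrays, and black bars the median of the 35 acinar genes, on pancreatectomy (Px, left) and sham (right) arrays. Bhlha15 stays within 0.36 of its mean while the bars run from −1.84 to 1.24.

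Because the genes shared 1 pattern over the arrays, each was also set against the acinar median of its array, a choice made after its values were seen. In a limma fit with that median as a covariate, 0 of the 35 genes rose, against 0.570% of features higher, and 0 fell, against 0.123% lower. At an unadjusted p under 0.05 there were 7 of 35, Dmbt1, Try5, Clps, Spink3, Pla2g1b, Try4 and Pnlip, against 10.7% of all features. The covariate is made from these same 35 genes and takes spread out of them in particular, so the shares are not comparable. Dmbt1 had the lowest adjusted p, 0.275, with a change of 0.89 ± 0.26 (SE). Try5 changed by 0.36, Try4 by 0.35 and Spink3 by 0.64, and Clps by −0.77, Pla2g1b by −0.65 and Pnlip by −0.64.

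By plain subtraction of that median, the groups' arrays did not overlap for 5 of the 35 genes, Prss2 and Dmbt1 higher and Cpa1, Ctrc and Clps lower in pancreatectomy. The share over all features was 0.330%, but subtraction takes spread out of the acinar genes and adds it to others, so the shares are not comparable. Relative to the acinar median, Dmbt1 was 0.86 and Prss2 0.45 higher in pancreatectomy, and Cpa1 was 0.34, Ctrc 0.67 and Clps 0.86 lower. The gaps were narrow. The nearest pancreatectomy and sham arrays had 13.70 and 13.52 for Dmbt1, 15.09 and 14.99 for Prss2, and 15.08 and 15.11 for Cpa1. They had 8.48 and 8.56 for Ctrc and 15.18 and 15.23 for Clps. Sham replicate 3 stood apart for Ctrc, at 9.84 against 8.56 to 8.86 on the other sham arrays, and for Clps, at 16.56 against 15.23 to 15.49. For Clps the second probe also separated the groups, at 12.33, 12.75, 12.77 and 12.45 on the pancreatectomy arrays and 13.17, 13.16, 12.83 and 13.20 on the sham arrays after the same subtraction, a difference of −0.52. For Ctrc the separation was seen with 1 of its 2 probes. The second Ctrc probe gave 5.08, 5.23, 4.60 and 5.07 on the pancreatectomy arrays and 4.68, 4.81, 7.25 and 5.09 on the sham arrays, which overlap.

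**Figure D4:**
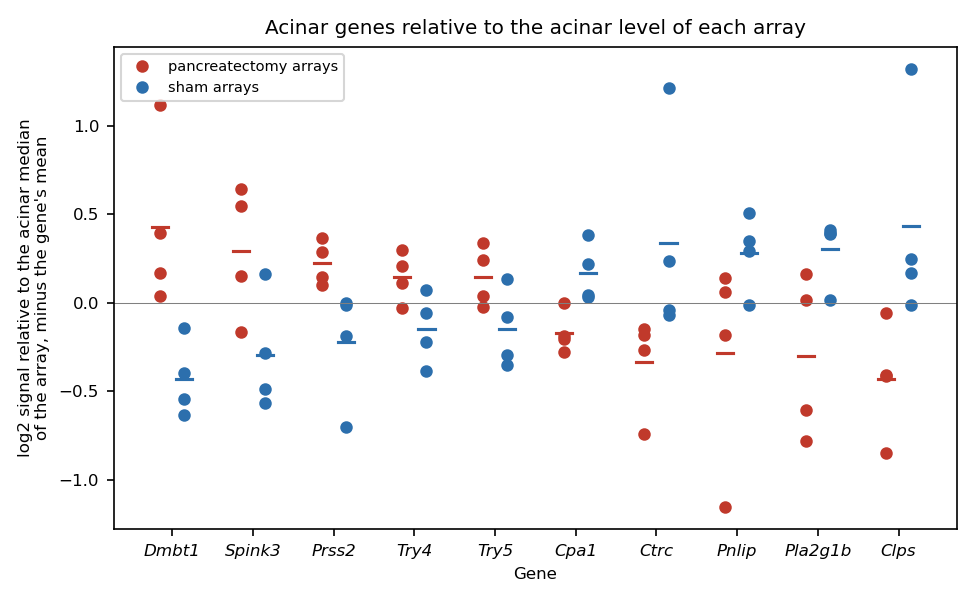
Points are log2 signals relative to the acinar median of the array and centred on the gene's mean, for pancreatectomy arrays (red, left of each pair) and sham arrays (blue, right), with short bars at the group means. The genes shown were chosen after their values were seen, and Dmbt1, Prss2, Cpa1, Ctrc and Clps are the 5 whose groups do not overlap.

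Other genes of the acinar cell, on a list of 40 that share no member with the one above, gave 1 call. The list was chosen with earlier results of these data known, so the call says nothing about the list. Of 38 measured, 1 rose, against 0.544% of all features, and 0 fell, against 0.0842%, with a median change of 0.05. The list holds receptors, granule traffic, endoplasmic reticulum and transcription genes, many of which islet cells also express. Its lowest change was that of Syt1, a synaptotagmin of exocytosis, at −0.57 ± 0.31. Among its other genes, and named after its values were seen, Cckar, the cholecystokinin receptor of acinar cells, changed by 1.41 ± 0.94 and did not pass. Over the 8 arrays the list's median stayed between −0.12 and 0.06 in pancreatectomy and between −0.08 and 0.16 in sham.

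The gene that rose was 1810009J06Rik, which the deposited table annotates with serine-type peptidase activity. Its probe lies at chr6:40918367-40918426 on mm9, on the same chromosome as the trypsinogens. The log2 signals were 10.93, 9.64, 9.45 and 6.64 on the pancreatectomy arrays and 4.65, 1.36, 2.94 and 2.21 on the sham arrays. Every pancreatectomy array lay above every sham array, and the probe was well above background on 4 of 4 pancreatectomy arrays and 1 of 4 sham arrays. It rose, with a limma adjusted p of 0.025. Its change was the largest of all 30864 features, and it passed the filter on dim probes mainly through the pancreatectomy arrays. The fitted log2 change was 6.37 ± 0.95 (SE), but the probe was not well above background on 3 of the 4 sham arrays. With low sham signals raised to a floor, pancreatectomy was 39.3-fold higher. That value is not a lower bound, since normexp background correction gave a log2 change of 3.09. The order of its arrays was not that of the acinar genes, since it was highest on pancreatectomy replicate 1, where the acinar median was the lowest of the pancreatectomy arrays. A second probe of the gene was above background on 2 of 4 pancreatectomy arrays and 0 of 4 sham arrays, and did not pass the filter. With the same kind of floor it put pancreatectomy 1.38-fold above sham. Each of these fold values sets the mean pancreatectomy signal against, on each sham array, the higher of the probe's own signal and the floor. The floor was the lowest signal of any probe well above background on that array.

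The call of 1810009J06Rik was lost in 11 of the 21 settings that gave a value. Among them were normexp background correction (3.09, adjusted p = 0.139), no filter on dim probes (adjusted p = 0.0753) and each slide row alone. It was also lost without pancreatectomy replicates 1, 2 or 3 or sham replicates 2, 3 or 4, one at a time, with changes from 5.79 to 6.43. The direction was the same in all 21.

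**Figure D5:**
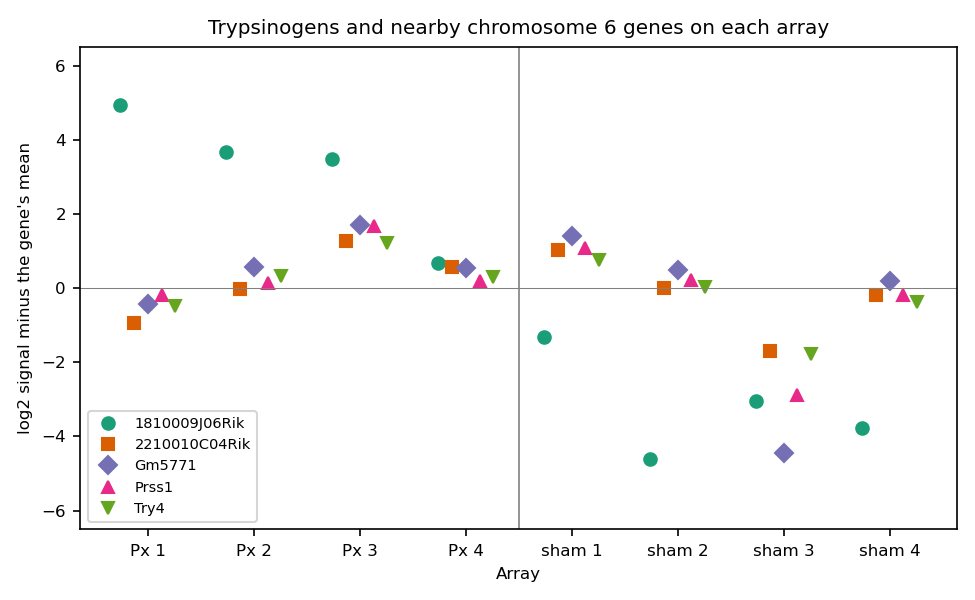
Points give the log2 signal minus the gene's mean over 8 arrays for 1810009J06Rik, 2210010C04Rik, Gm5771, Prss1 and Try4, on pancreatectomy (Px, left) and sham (right) arrays. 1810009J06Rik is above its mean on all 4 pancreatectomy arrays and below it on all 4 sham arrays, whereas Prss1 and Try4 are high on pancreatectomy replicate 3 and sham replicate 1.

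The Reg genes, secreted proteins that acinar cells make under stress, shared the low sham replicate 3. Limma called 0 of the 6 measured, against 0.629% of all features, and the median change was 2.56. Before adjustment 4 of the 6 fell below 0.05, against 10.5% of all features. Reg3g had the largest change, 3.32 ± 0.85 (adjusted p = 0.198), with log2 signals of 12.13, 10.37, 12.65 and 11.42 on the pancreatectomy arrays and 10.60, 8.67, 6.42 and 7.61 on the sham arrays. Reg1 had the smallest, 1.32 ± 0.76. The array medians of the Reg genes were 1.55, 0.41, 2.33 and 0.69 in pancreatectomy and 0.57, −0.36, −3.94 and −1.31 in sham.

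Outside the list, the 8 genes with a symbol whose signals most resembled the mean of the centred acinar genes over 8 arrays, by Pearson r, were Cela3a at 0.99, Olfr1347 at 0.99, 2210010C04Rik at 0.98, Lin52 at 0.97, Aqp12 at 0.97, 1810053B23Rik at 0.97, Klk1b3 at 0.97 and Klk1b5 at 0.96. Over all 30767 features with a value on every array, acinar genes included, 158 had an r above 0.9. These are descriptions of shared array order, and the points share scaling and signal depth.

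Markers of other cell types moved over the same arrays in other orders. The 10 beta-cell markers had array medians of −0.45, 0.00, −0.31 and −0.01 in pancreatectomy and 0.05, 0.12, 0.56 and 0.03 in sham. Their median was thus highest on sham replicate 3, where the acinar median was lowest. Not every marker followed, and Nkx6-1, Slc2a2 and G6pc2 were each highest on another array. The 10 liver markers were high on pancreatectomy replicates 1 and 4 and sham replicate 4, with medians of 4.11, 3.15 and 3.81. The 10 fibroblast, stellate and pericyte markers had medians of 2.02 and 1.20 on pancreatectomy replicates 1 and 3, and from −0.81 to −0.25 on sham arrays, and the 8 measured macrophage markers 1.62 and 0.90 on the same 2 pancreatectomy arrays, and from −0.46 to −0.29 on sham arrays. The signals of each list were also summed before taking log2, a value that mostly reflects its brightest genes. For fibroblasts it ran from 13.33 to 16.88 in pancreatectomy and from 12.90 to 13.72 in sham. For macrophages it ran from 14.16 to 14.61 in pancreatectomy and from 14.21 to 14.99 in sham. None of these marker lists held a gene that limma called. At an unadjusted p, where 10.5% of all features fell below 0.05, the count was 4 of 10 for beta cells, 3 of 8 for the other islet hormone cells, 2 of 16 for duct, 2 of 10 for fibroblasts and 1 of 8 for macrophages. It was 2 of 5 for neutrophils, 1 of 8 for endothelium, 1 of 10 for liver and 0 for the B-cell and plasma-cell (5 measured), gut (6 measured) and stomach (3 measured) lists. Their part in the acinar values was not tested.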

How the data were processed

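The deposited scanner files give an intensity for every spot, not on a log scale, and the file headers name Feature Extraction 10.7.3.1, whereas version 9.1 stands in the submitters' processing notes. The processed signal is background-subtracted and not scaled between arrays, per the file headers. Group means of a log2 value, made with GeneSpring GX 12.5 per the file headers, fill the authors' deposited table, which served for gene names. In it, the median pancreatectomy minus sham difference over the 44 acinar probes was 0.26, against 0.25 here.

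Control spots, and 113 to 228 outlier spots per array, were left out, and no spot was saturated. Processed signals were put on the log2 scale, shifted to a common 75th percentile and averaged over the spots of a probe. Probes well above background on 4 or more of 8 arrays, with 3 or more values a group, were kept, and the brightest kept probe stood for its gene. The 44 acinar probes gave 43 that were kept. All 30864 features were fitted with limma 3.58.1 in R 4.3.3, with Benjamini-Hochberg adjustment and a threshold of 0.05. The fit was tested on simulated data in which features varied independently of each other. Such data do not represent genes that move as a block, as the acinar genes did. Normexp (offset 50) used the median spot signal and median local background, because the files carry no mean-signal column.

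The gene list, its role classes and the marker lists were chosen with earlier results of these data known. Values on every array are given for the transcription factors, the brightest probe of each role class, the 3 highest and 3 lowest changes, genes past the threshold or with groups that do not overlap, also relative to the acinar median, and genes whose probes differ in direction. Marker lists of other cell types had no calls and are given by counts.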

Additional observations from a re-analysis of the deposited data

Results flagged for a closer look

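In 72 groups of 4 arrays (35 acinar genes and 1810009J06Rik in 2 groups), a single array stood far from the other 3 in 2 cases by Dixon's test, which chance gives in about 1 in 20 groups. Spink3 had a log2 signal of 13.71 on pancreatectomy replicate 3, where the other pancreatectomy arrays lay between 11.88 and 12.11. Dmbt1 had 15.30 on pancreatectomy replicate 3, where the others lay between 13.88 and 14.10.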

How the results depend on the processing

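Of the 35 acinar genes, limma called 0 in each of 22 settings, 33 being tested where a probe had to be above background on all arrays, and at most 9 had an unadjusted p under 0.05 (within slide row 2). The number of called features over the whole table was 194. It changed to 60 with normexp, 18 with no scaling, 72 with no filter on dim probes and 126 with probes above background on all arrays. It was 769 with array weights, 122 with slide row as a block, and 0 and 0 within slide rows 1 and 2. Leaving out 1 array gave from 59 to 184, with 129 and 62 without pancreatectomy replicates 1 and 4, and 91, 59 and 95 without sham replicates 1, 2 and 4. Within the rows limma rests on 2 arrays against 2. The fit on arrays where liver, gut and B-cell transcripts were not high, 1 against 3, assumes that the lone array varies like the others. The median change of the acinar genes, 0.27, was −0.99 and 1.69 within slide rows 1 and 2, from −0.23 to 0.64 with 1 array left out, and relative to the median of all features 0.31 with the 75th percentile, 0.31 with median scaling, which moved the median of all features to −0.16, 0.38 with quantile scaling and 0.26 with normexp. The median within-group SD was 1.05 to 1.62 over 5 settings. No paired analysis was possible because the labels give the arrays no shared replicate number. Updating symbols through gene identifiers found neither Prss3 nor Try10, so it gave no further value.

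Of 768 changes of acinar genes under the settings, 115 took the opposite sign, in 34 of 35 genes, with no call in either fit. With array weights the changes that took the opposite sign were −0.068 for Amy1, −0.078 for Amy2a5, −0.16 for Cela1, −0.24 for Cela2a, −0.095 for Cpa1, −0.16 for Ctrl, −0.016 for Rnase1, 0.12 for Sycn, −0.10 for Tff2 and 0.022 for Pdia2. On the arrays where liver, gut and B-cell transcripts were not high, 1 against 3, the changes that took the opposite sign were −0.16 for Cpa1, 0.089 for Pnlip, −0.036 for Gp2, −0.040 for Tff2, −0.020 for Ptf1a, −0.080 for Bhlha15, −0.081 for Rbpjl and −0.51 for Nr5a2. With median scaling the changes that took the opposite sign were −0.023 for Amy2a5, −0.0097 for Cela1, −0.082 for Cpa1, −0.12 for Tff2, −0.099 for Bhlha15 and −0.014 for Nr5a2. With the acinar median as a covariate, a fit added after the data were seen, the changes that took the opposite sign were −0.072 for Amy2a5, −0.34 for Cela1, −0.36 for Cela2a, −0.32 for Cpa1, −0.24 for Ctrl, −0.039 for Cel, −0.18 for Gp2, −0.25 for Zg16, −0.054 for Rnase1, −0.42 for Tff2 and −0.048 for Rbpjl. With normexp the change of Tff2 took the opposite sign, at −0.12. Within slide row 1 the changes that took the opposite sign were −0.71 for Amy1, −0.54 for Amy2a5, −1.46 for Cela1, −1.47 for Cela2a, −0.87 for Cela3b, −1.31 for Cpa1, −1.06 for Cpb1, −0.70 for Ctrb1, −1.38 for Ctrl and −0.67 for Prss1. In the same fit they were also −0.60 for Prss2, −0.48 for Try4, −0.44 for Try5, −0.78 for Pnliprp1, −1.07 for Pnliprp2, −1.02 for Cel, −0.17 for Spink3, −0.99 for Cuzd1, −1.002 for Gp2 and −1.39 for Zg16. In the same fit they were also −1.28 for Rnase1, −1.40 for Tff2, −0.52 for Ptf1a, −0.62 for Rbpjl, −0.095 for Nr5a2, −0.36 for Erp27 and −0.96 for Serpini2. Within slide row 2 the changes that took the opposite sign were 0.93 for Ctrc, 1.44 for Pnlip, 0.64 for Clps, 1.28 for Pla2g1b, 1.05 for Sycn, −0.041 for Bhlha15 and 1.28 for Pdia2. With 1 array left out, changes that took the opposite sign in at least 1 such fit ran from −0.24 to 0.66 for Amy1, −0.14 to 0.34 for Amy2a5, −0.57 to 0.59 for Cela1, −0.66 to 0.64 for Cela2a, −0.025 to 1.004 for Cela3b, −0.44 to 0.44 for Cpa1 and −0.29 to 1.08 for Cpb1. Further such ranges were −0.66 to 0.14 for Ctrc, −0.44 to 0.70 for Ctrl, −0.84 to 0.40 for Pnlip, −0.023 to 1.01 for Pnliprp1, −0.31 to 1.08 for Pnliprp2, −0.29 to 0.81 for Cel and −0.88 to 0.25 for Pla2g1b. Further such ranges were −0.10 to 1.70 for Cuzd1, −0.34 to 0.62 for Gp2, −0.31 to 0.63 for Zg16, −0.40 to 1.02 for Rnase1, −0.48 to 0.38 for Sycn, −0.60 to 0.58 for Tff2 and −0.19 to 1.11 for Ptf1a. Further such ranges were −0.088 to 0.14 for Bhlha15, −0.20 to 0.44 for Rbpjl, −0.22 to 0.33 for Nr5a2, −0.013 to 0.48 for Erp27, −0.18 to 1.08 for Serpini2 and −0.47 to 0.43 for Pdia2. Of the 653 that kept their sign, 236 moved by over 1.5 times, 200 of them outside the fits within a slide row. The cause of these changes was not tested.

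Precision is limited by 4 arrays a group and, for the dimmest probes, by signal near background on sham replicate 3.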
